A study of Arabidopsis thaliana with 12 samples.

Results

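JAZ1, JAZ5, MYC2 and ORA59 are 4 regulators of the jasmonate response of Arabidopsis thaliana, and they are described here in 3 mutants of RNA-directed silencing. They were picked by gene identifier (AT1G19180, AT1G17380, AT1G32640 and AT1G06160) out of 1618 genes and transposable elements listed in at least 1 of the authors' 3 deposited tables. Because the same RPKM and q-values led to the choice, the levels below are a description and no test of these genes was added. The groups were nrpe1, a heterozygote written swi3b +/-, idn2-1 and the wild type Col-0, with 3 biological replicates each (12 samples), and the labels name no allele for nrpe1 and swi3b +/-. All were whole seedlings 2 to 3 weeks old from long days, and rRNA was depleted from their total RNA before sequencing. RNA polymerase V, whose largest subunit is NRPE1, makes non-coding transcripts that this silencing needs. IDN2 binds RNA in the same pathway and SWI3B belongs to SWI/SNF nucleosome remodelling complexes.

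Jasmonate is a lipid-derived hormone made after wounding and attack by insects or necrotrophic fungi. Its amino acid conjugate joins the receptor COI1 to JAZ proteins, which are repressors, and the JAZ proteins are then degraded. MYC2, a bHLH activator held back by JAZ proteins, is thereby freed and switches on wound genes, among them JAZ genes themselves. ORA59, an AP2/ERF factor, acts in a separate branch that needs ethylene as well and drives defensin genes.

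Each deposited table sets 1 mutant against Col-0 and gives 1 RPKM value (reads scaled to transcript length and library size) per genotype, pooled over replicates. No spread between replicates can be given, the depth is unknown, and a gene is called where its table lists it, which requires a q-value under 0.05. An absent gene may have missed that threshold or may not have been tested. The 3 comparisons share Col-0 samples, and the tables for nrpe1 and swi3b +/- print the same Col-0 value for each of 164 features that both hold above 0. In the idn2-1 table they were 0.860 times those of the swi3b +/- table (median of 171 features), so levels of that table are on another scale. As for the mutated genes, NRPE1 was listed at 1.01 RPKM in nrpe1 and 3.98 RPKM in Col-0 in the authors' deposited table, while SWI3B and IDN2 were not listed in the tables of their own mutants. Of 9 leaf, root, flower and seed markers only the leaf gene RBCS1B was listed, in idn2-1, so the tissue could not be checked from these tables.

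All 4 genes lie on chromosome 1 (TAIR10). The tables place ORA59 at 1883004 to 1883934, JAZ5 at 5955488 to 5957212, JAZ1 at 6622094 to 6623620 and MYC2 at 11798810 to 11800988. RefSeq's TAIR10.1 annotation gives longer spans, of 1086 bp for ORA59, 2357 bp for JAZ5, 1892 bp for JAZ1 and 3289 bp for MYC2. ORA59 and MYC2 have 1 exon each, JAZ5 transcripts have 3 or 4 exons and JAZ1 transcripts 1 to 3. On the strand opposite MYC2, the protein-coding gene AT1G32630 covers 3241 of its 3289 exonic bases (98.5%) in that annotation. The labels do not say whether the libraries kept strand, so it is unknown whether reads of MYC2 and AT1G32630 were told apart. The overlap was not checked in the gene models behind the deposited tables, where the MYC2 locus is 2179 bp. AT1G32630 itself was listed in none of the 3 tables.

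MYC2 protein is known to bind the G-box, so the stretch around such a motif upstream of each gene is shown in the direction of transcription. The 1000 bases before the annotated start were searched on both strands for the G-box CACGTG, its variant CACATG and, since ORA59 is known to bind it, the GCC box GCCGCC. No matches overlapped one another, and the match shown for MYC2 is to the complement of the variant. Each run has 100 bases of RefSeq's TAIR10.1 with matches in capitals, at chr1:6620886-6620985 (plus strand) for JAZ1, chr1:5958048-5958147 (minus) for JAZ5, chr1:11801725-11801824 (minus) for MYC2 and chr1:1882666-1882765 (plus) for ORA59.
JAZ1: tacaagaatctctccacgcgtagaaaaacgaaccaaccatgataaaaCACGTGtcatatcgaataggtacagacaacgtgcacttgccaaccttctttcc
JAZ5: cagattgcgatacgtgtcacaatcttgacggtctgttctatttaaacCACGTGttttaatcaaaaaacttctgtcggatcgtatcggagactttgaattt
MYC2: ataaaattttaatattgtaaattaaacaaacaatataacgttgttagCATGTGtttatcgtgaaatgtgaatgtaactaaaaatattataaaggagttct
ORA59: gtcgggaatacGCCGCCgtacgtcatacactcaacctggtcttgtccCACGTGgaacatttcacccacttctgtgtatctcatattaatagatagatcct

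JAZ1, JAZ5 and ORA59 each held 1 G-box, beginning 844, 589 and 194 bases before the gene's start. MYC2 held none in this window and 1 copy of the variant, 370 bases before its start, while JAZ1 held 2 copies of the variant, JAZ5 1 and ORA59 0. The only GCC box was that of ORA59, 230 bases before its start. Among 27443 protein-coding genes, 14.8% had a G-box in a window of the same length, 37.7% the variant and 8.44% a GCC box. The JAZ1 stretch lies within an annotated long non-coding RNA gene on the other strand, AT1G05473. A match is a run of letters and not a measured binding site, and its part in the levels of these genes was not tested.

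**Figure D1:**
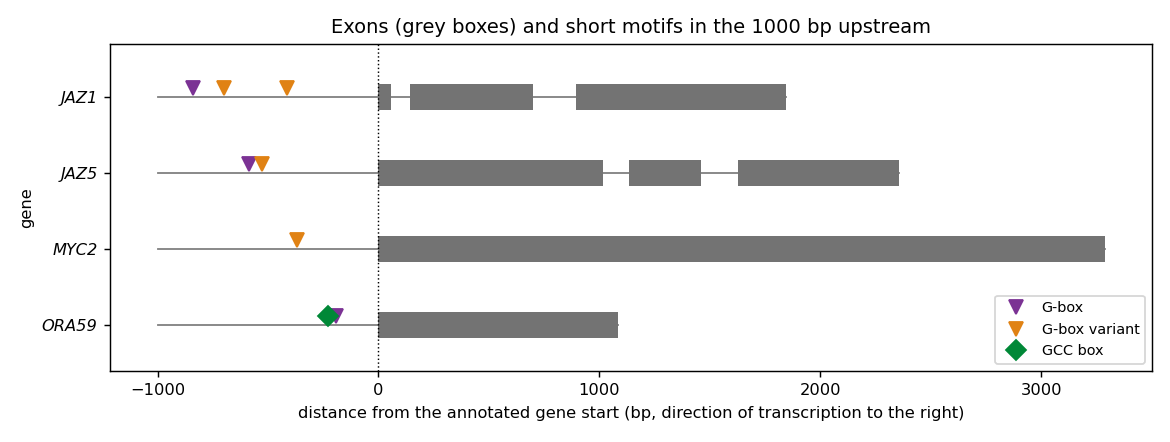
Exons of the longest transcript (grey boxes) and motif matches (triangles and a diamond) of JAZ1, JAZ5, MYC2 and ORA59, placed by distance in bp from the annotated gene start. Matches to the G-box lie upstream of JAZ1, JAZ5 and ORA59, and MYC2 has only the variant.

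In Col-0, MYC2 had the highest level of the 4 and JAZ5 the lowest. The Col-0 values in the authors' deposited table for swi3b +/- were 46.9 RPKM for MYC2, 11.6 RPKM for JAZ1 and 2.58 RPKM for JAZ5. ORA59 had 6.79 RPKM in Col-0 in the authors' deposited table for idn2-1, which is 7.89 RPKM on the scale of the other tables by the median ratio. Single features had ratios from 0.547 to 1.34, which would put ORA59 anywhere from 5.07 to 12.4 RPKM, above JAZ5 but not clearly below JAZ1. Without replicate values it cannot be said which neighbours in this order differ beyond their spread.

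The JAZ repressors were higher in mutants wherever they were listed, also after centring on the listed features. JAZ1 had 26.0 RPKM in swi3b +/- and 11.6 RPKM in Col-0 in the authors' deposited table, a 2.24-fold rise (log2 fold 1.17, q = 1.95e-05). That table alone lists JAZ1. JAZ5 had 7.76 RPKM in swi3b +/- and 2.58 RPKM in Col-0 in the authors' deposited table, a 3.01-fold rise (log2 fold 1.59, q = 3.06e-06). In nrpe1, JAZ5 had 4.88 RPKM, against the same 2.58 RPKM in Col-0, in the authors' deposited table, a 1.89-fold rise (log2 fold 0.92, q = 0.0427). The nrpe1 rise stands close to the listing threshold, and the difference between the JAZ5 folds of the mutants was not tested.

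MYC2 was listed in opposite directions in swi3b +/- and idn2-1. It had 89.4 RPKM in swi3b +/- and 46.9 RPKM in Col-0 in the authors' deposited table, a 1.91-fold rise (log2 fold 0.93, q = 0.000189). In idn2-1 it had 20.8 RPKM, against 40.1 RPKM in Col-0, in the authors' deposited table, or 51.8% of Col-0 (log2 fold -0.95, q = 0.0327). Each fold was close to the median of its own table's listed features, so both signs turn when the folds are centred on those medians, to -0.07 in swi3b +/- and 0.06 in idn2-1. Centring on listed features is not centring on all genes, whose median these tables do not give. The 2 mutants were not compared with each other directly.

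ORA59 was listed for idn2-1 alone, and lower. It had 2.71 RPKM in idn2-1 and 6.79 RPKM in Col-0 in the authors' deposited table, or 39.9% of Col-0 (log2 fold -1.32, q = 0.0142). In whole seedlings, fewer cells that express a gene and less RNA per cell cannot be told apart, here as for the other genes. In the same comparison the leaf marker RBCS1B, a Rubisco small subunit gene, had 560.0 RPKM in idn2-1 and 257.8 RPKM in Col-0 in the authors' deposited table (2.17-fold higher, q = 0.0233). Its part in the lower levels of MYC2 and ORA59 was not tested.

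**Figure D2:**
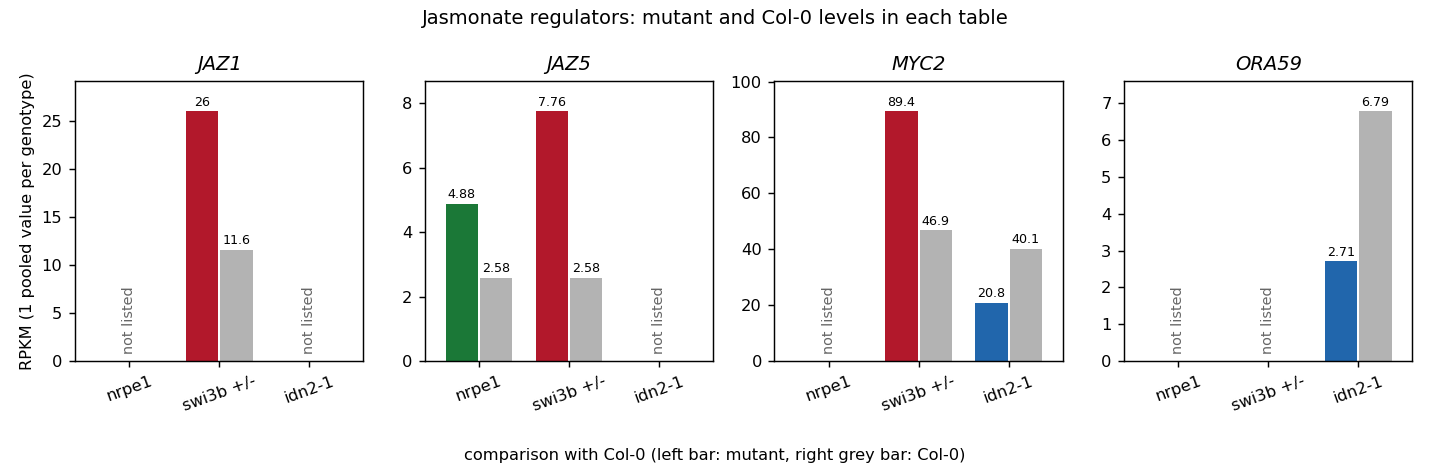
RPKM of JAZ1, JAZ5, MYC2 and ORA59 in each mutant (coloured left bar) and in Col-0 (grey right bar), 1 pooled value per bar with no error bar, by table. JAZ1 and JAZ5 are higher in the mutants that list them, MYC2 is higher in swi3b +/- and lower in idn2-1 (both signs turn on centring by the listed features), and ORA59 is lower in idn2-1.

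The direction of calls was unevenly spread in the tables. Of features tested by the authors, 1.04% were listed as higher and 0.848% as lower in nrpe1, 1.87% and 0.556% in swi3b +/-, and 1.24% and 1.95% in idn2-1. The 4 regulators gave 1 higher call in nrpe1, 3 higher calls in swi3b +/- and 2 lower calls in idn2-1. Since the genes were chosen for being listed, nothing is read from these counts. By size of fold JAZ5 ranked 101 and JAZ1 219 among 479 genes higher in swi3b +/- with both values above 0, and MYC2 ranked 336, where the median fold was 2.18. JAZ5 ranked 135 among 257 such genes higher in nrpe1, where the median fold was 1.91. ORA59 ranked 140 and MYC2 392 among 421 genes lower in idn2-1, where the median fold was 2.25. JAZ5 and JAZ1 thus stood above the median rise of swi3b +/-, ORA59 above the median fall of idn2-1, and MYC2 below the median in both tables. In nrpe1 JAZ5 stood slightly below the median rise.

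**Figure D3:**
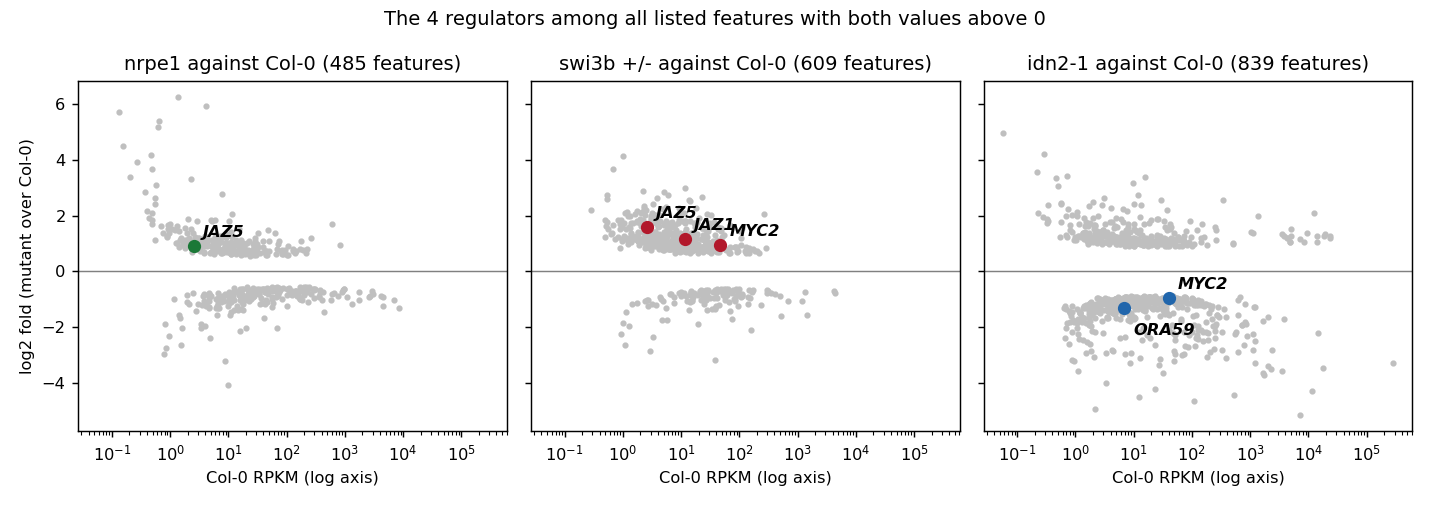
Log2 fold of mutant over Col-0 against the Col-0 level (RPKM, log axis) for all listed features with both values above 0 (grey), 485 in nrpe1, 609 in swi3b +/- and 839 in idn2-1. The 4 regulators (coloured, named) lie among the bulk of listed features of like level; the blank band around 0 holds features that were not listed.

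Where a regulator was not listed, the folds of listed genes within 1.5 times its Col-0 level describe the changes the tables report at that level. For JAZ1 the smallest such fold in either direction was 1.51 in nrpe1 (100 genes) and 1.86 in idn2-1 (161 genes). For JAZ5 it was 1.95 in idn2-1 (116 genes), and for MYC2 1.47 in nrpe1 (57 genes). For ORA59 the smallest rise was 1.52-fold in nrpe1 (87 genes) and 1.59-fold in swi3b +/- (134 genes), and the smallest fall was 1.68-fold in both. These folds are no detection limit for the regulators, since listing rests on q, and an absent gene cannot be called unchanged.

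The direction of a call varied with gene length in each table, over the widest range in idn2-1. Among listed protein-coding genes 40 of 256 were higher (15.6%) in the longest of 3 equal classes by annotated span, above 2644 bp, which holds MYC2. In the shortest class, up to 1597 bp, which holds ORA59, 149 of 209 were higher (71.3%). The shares higher in the short, middle and long classes were 50.3%, 58.5% and 62.6% in nrpe1, 85.9%, 80.3% and 70.6% in swi3b +/-, and 71.3%, 43.2% and 15.6% in idn2-1. In idn2-1 ORA59 therefore went against the prevailing direction of its length class and MYC2 with it. The class of MYC2 rests on the RefSeq span. Its locus in the deposited tables is 2179 bp, which lies within the bounds of the middle class (43.2% higher in idn2-1). The part of gene length in these results was not tested.

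The other repressors and partners of these genes were mostly not listed. Of 13 JAZ genes, JAZ1 and JAZ5 were listed in swi3b +/-, JAZ5 and JAZ6 in nrpe1, and none in idn2-1. Of all features tested, 1.87% were listed as higher and 0.556% as lower in swi3b +/-. The same shares were 1.04% and 0.848% in nrpe1, and 1.24% and 1.95% in idn2-1. JAZ6, whose coding sequence is 76.2% identical to that of JAZ5 with no shared run above 20 bases, had 27.0 RPKM in nrpe1 and 16.8 RPKM in Col-0 in the authors' deposited table (1.60-fold, q = 0.0137). COI1 and the co-repressor genes NINJA and TPL were listed nowhere. Among 7 MYC-type bHLH genes, MYC3, which encodes an activator that acts together with MYC2, was the only one listed beside MYC2. MYC3 had 8.79 RPKM in idn2-1 and 17.2 RPKM in Col-0 in the authors' deposited table (log2 fold -0.96, q = 0.0327), close to the fold of MYC2 in that table and likewise turned in sign by centring. The coding sequences of MYC2 and MYC3 are 70.5% identical, with no shared run above 20 bases.

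A list of 15 ethylene and ERF genes, ORA59 among them, was followed. Being on this list does not place a gene in the branch of ORA59 or among its targets. Beside ORA59, only ERF2, an ERF-type activator, was listed in idn2-1, at 13.2 RPKM, against 39.7 RPKM in Col-0, in the authors' deposited table (log2 fold -1.59, q = 1.46e-05). In idn2-1, 1.95% of all features tested were lower and 1.24% higher. The table for swi3b +/- lists 4 others, all higher, where 1.87% of all features tested were. ERF109 was 4.21-fold and ERF104 2.86-fold higher in swi3b +/- than in Col-0 in the authors' deposited table (q = 3.49e-06 and 1.84e-10). ERF6 and ERF5 were 2.17-fold and 2.07-fold higher there in the authors' deposited table (q = 0.000136 and 0.0151). In nrpe1 ERF104 alone was listed, 1.61-fold higher in the authors' deposited table (q = 0.0218), where 1.04% of all features tested were higher. The defensin genes PDF1.2A, PDF1.2B and PDF1.2C, known targets of ORA59, were in none of the tables, nor were PR4 and CHI-B.

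Genes of jasmonate synthesis were listed chiefly in swi3b +/-, where 6 of 15 were higher and none lower (2 and 4 after centring on the listed features). Of all features tested there, 1.87% were higher and 0.556% lower. LOX4, a lipoxygenase at the start of the pathway, and AOC3, an allene oxide cyclase, were 3.35-fold and 3.26-fold higher in swi3b +/- in the authors' deposited table (q = 3.72e-09 and 1.22e-05). AOS, which makes the allene oxide, had 125.2 RPKM in swi3b +/- and 68.2 RPKM in Col-0 in the authors' deposited table (1.84-fold, q = 0.000636). AOC2, OPCL1 and OPR3, which act later, were 1.70-fold, 1.74-fold and 1.68-fold higher in swi3b +/- in the authors' deposited table. AOC3 was also 2.27-fold higher in idn2-1 in the authors' deposited table (q = 0.0393). AOC2 is 90.3% identical to AOC1 in coding sequence with shared runs up to 47 bases, and AOC3 82.4% identical to AOC2 with runs up to 50 bases, so their values are uncertain. LOX3, a further lipoxygenase, was the only synthesis gene listed in nrpe1, with 9.35 RPKM in nrpe1 and 4.98 RPKM in Col-0 in the authors' deposited table (1.88-fold, q = 0.000534). On chromosome 1, 19811 bp lie between JAZ5 and LOX3, and both were higher in nrpe1. Within 20 kb of JAZ5, 2 of 12 annotated genes were listed in any table, the other being AT1G17360, 1.74-fold higher in swi3b +/- in the authors' deposited table. None of the 19, 20 and 12 genes within 20 kb of JAZ1, MYC2 and ORA59 was listed. The shares of all features tested were 1.04% higher and 0.848% lower in nrpe1, 1.87% and 0.556% in swi3b +/-, and 1.24% and 1.95% in idn2-1. Nothing is read from these counts of neighbours. No listed element overlapped any of the 4 genes.

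Jasmonate turnover genes were listed in nrpe1 and idn2-1 but not in swi3b +/- (2, 1 and 0 of 10). Of all features tested, 1.04% were higher and 0.848% lower in nrpe1, 1.87% and 0.556% in swi3b +/-, and 1.24% and 1.95% in idn2-1. CYP94B3, a P450 that oxidises the active hormone, was 2.31-fold higher in nrpe1 in the authors' deposited table (q = 0.0147), and AT2G38240, annotated as a 2-oxoglutarate-dependent oxygenase, 2.85-fold (q = 1.19e-06). AT5G05600, annotated likewise, had 5.54 RPKM in idn2-1 and 13.3 RPKM in Col-0 in the authors' deposited table (log2 fold -1.26, q = 0.00149). Of 8 genes downstream of MYC2, 5 were higher in swi3b +/- (2 after centring), with folds from 1.88 for VSP2 to 4.02 for TAT3 in the authors' deposited table. In nrpe1, VSP2 and ARGAH2 were lower (log2 fold -0.71 for VSP2 and -0.76 for ARGAH2 in the authors' deposited table), and in idn2-1 VSP1 was 2.09-fold higher while MYC2 was lower. VSP1 and VSP2 share 90.4% of their coding bases with runs up to 54 bases, so reads could be split between them.

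Leaving out the 4 regulators, 67 genes in 7 lists remained. Of these, 15 were higher and 0 lower in swi3b +/-, 5 higher and 2 lower in nrpe1, and 2 higher and 3 lower in idn2-1. The shares of all tested features were 1.87% higher and 0.556% lower in swi3b +/-, 1.04% and 0.848% in nrpe1, and 1.24% and 1.95% in idn2-1. Centring on the listed features turned the sign of 7 of the 15 in swi3b +/-, 1 of the 5 in idn2-1 and 0 in nrpe1. The median log2 fold of these listed genes was 1.05 in swi3b +/-, 0.69 in nrpe1 and -0.96 in idn2-1, beside 1.00, 0.64 and -1.01 over all listed features with both values above 0. The lists were drawn up with earlier results of these tables known, so the counts describe the lists and are not independent evidence.

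**Figure D4:**
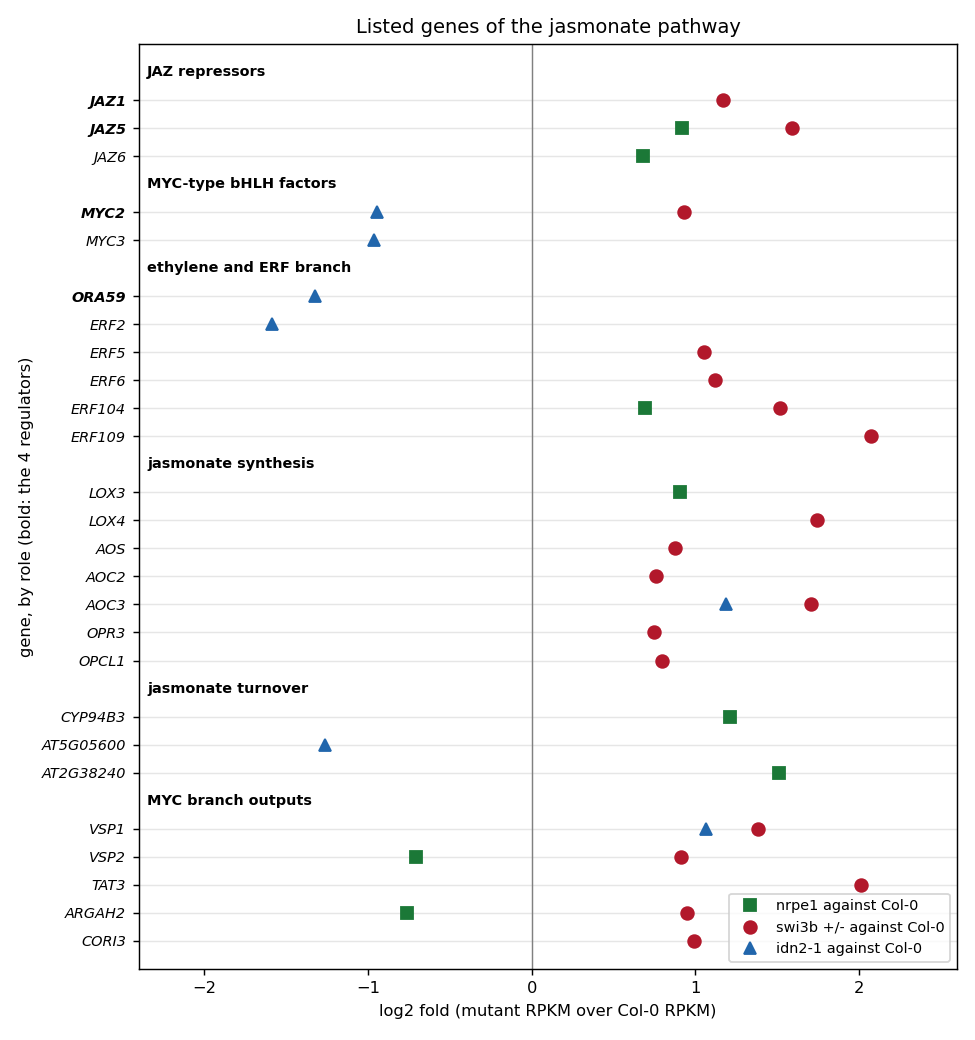
Log2 fold of mutant RPKM over Col-0 RPKM for every listed gene of the jasmonate lists, by role, with the 4 regulators in bold; squares are nrpe1, circles swi3b +/- and triangles idn2-1, and a missing symbol means that the gene was not listed. All 18 circles lie above 0, whereas 5 of 7 triangles lie below 0 (centring on the listed features turns the sign of 8 circles and 2 triangles, MYC2 in both sets).

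Touch and rapid wounding genes that were listed were higher in each mutant. The genes of this list were already known to move from an earlier analysis, so its counts follow from that choice and nothing is read from them. The sums below cover listed genes alone, all of them higher, so a higher sum in the mutant was fixed in advance. All 12 of 12 genes were higher in swi3b +/- (11 after centring on the listed features), where 1.87% of all features tested were, with a summed level of 1802 RPKM in swi3b +/- and 558 RPKM in Col-0 in the authors' deposited table. In nrpe1, 6 of 12 were listed, all higher (1.04% of all features), at 1095 RPKM in nrpe1 and 516 RPKM in Col-0 over those 6 in the authors' deposited table. In idn2-1, where MYC2 and ORA59 were lower, 5 of 12 were listed and all were higher (1.24% of all features), at 1239 RPKM in idn2-1 and 446 RPKM in Col-0 over those 5 in the authors' deposited table. TCH4, a cell wall enzyme gene, and TCH3, a calmodulin-like gene, made up most of these sums. Without them the listed genes summed to 180.6 RPKM in nrpe1 and 67.8 RPKM in Col-0 (4 genes), 419 RPKM in swi3b +/- and 109.7 RPKM in Col-0 (10 genes), and 128.1 RPKM in idn2-1 and 40.6 RPKM in Col-0 (3 genes), from the authors' deposited tables. The part of handling or growth of the plants in the levels of the regulators was not tested.

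The genes closest in pattern to each regulator were taken from genes listed in exactly the same tables, by the Euclidean distance over their log2 RPKM values. These are the mutant and Col-0 values of each table, so the distance reflects level as well as fold. Distances over 1 table and over 2 tables are not on a like scale. JAZ1 was closest to SYP122, a syntaxin gene, RDUF1, a RING finger gene, and NAC036, at distances of 0.07, 0.07 and 0.12 over 1 table (344 candidates). JAZ5 was closest to AT3G21670, annotated as a major facilitator, the F-box gene FBS1 and the clock gene CCA1, at 0.25, 0.34 and 0.35 over 2 tables (94 candidates). ORA59 was closest to the F-box gene KUF1, LSH6 and AT1G73850, at 0.09, 0.12 and 0.15 over 1 table (525 candidates). MYC2 had no near neighbour among 95 candidates over 2 tables, the closest being AT2G44410 at 1.73, DREB26 at 1.82 and AT5G57760 at 1.86. None of these 3 went the way of MYC2. AT2G44410 and AT5G57760 were lower in both swi3b +/- and idn2-1, and DREB26 was higher in both, with 2.71-fold in swi3b +/- and 2.41-fold in idn2-1 in the authors' deposited table.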

How the data were processed

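RNA-seq of rRNA-depleted seedling RNA was used as 3 tables of the authors' own comparisons. Per the file headers, the deposited values are RPKM for the mutant and Col-0, their log2 fold, and the p-value and q-value of each comparison. TopHat and Cufflinks, on TAIR10, are named by the submitters' processing notes. How replicates were pooled and which test gave the p-values are not stated there. The columns hold 1 pooled value per genotype, so no test was fitted, and 0 columns were left unmapped. Deposited log2 folds equal the log2 ratio of the RPKM values to within 1.24e-05; where 1 value is 0 the tables print a placeholder, and such features stayed out of fold ranks and medians.

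The number of tests was recovered as the median of q times rank over p (27012 for nrpe1, 25877 for swi3b +/- and 27755 for idn2-1), a step tested on simulated data. Table starts were raised by 1 to be 1-based. Names, spans and sequence came from RefSeq's TAIR10.1, whose gene overlapped the table's locus for all 1462 matched genes. All 83 list identifiers matched. Coding sequences were aligned with Biopython 1.88 under Python 3.11.15.

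The genes, lists and rules were chosen with earlier results of these data known. Named are the 4 regulators, listed members of the lists, the 3 genes nearest in pattern to each and listed genes within 20 kb; genes named as not listed come from the same lists. Alternatives were q under 0.01, Bonferroni adjustment, a minimum of 2-fold, pseudocounts of 0.1 and 1, centring, and rescaled Col-0 values.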

Additional observations from a re-analysis of the deposited data

How the results depend on the processing

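Replicates could not be left out because the deposited tables hold 1 pooled value per genotype. No paired analysis was possible because the deposited columns carry no replicate numbers. The 3 higher regulators of swi3b +/- remained called at q under 0.01 and under Bonferroni adjustment, and JAZ1 and JAZ5 also at 2-fold. In nrpe1, 0 regulators were left under each of these, and in idn2-1 0 at q under 0.01 and under Bonferroni adjustment and 1, ORA59, at 2-fold. Of the 8 members of the jasmonate lists called in nrpe1, 4 were left at q under 0.01, 1 under Bonferroni adjustment and 2 at 2-fold. Of the 18 listed in swi3b +/-, 17 were left at q under 0.01, 12 under Bonferroni adjustment and 10 at 2-fold. Of the 7 in idn2-1, 2 were left at q under 0.01, 1 under Bonferroni adjustment and 5 at 2-fold. The share of all listed features left at these settings was not computed. None of these counts can therefore be called particular to the regulators or the jasmonate lists.

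Pseudocounts of 0.1 and 1 kept every direction and moved no fold of the 4 regulators by 1.5 times, nor did the rescaled Col-0 value for MYC2 in idn2-1. Centring on the median of listed features, which are not all genes, gave log2 values of 0.16 for JAZ1, 0.58 for JAZ5 and -0.0721 for MYC2 in swi3b +/-, 0.28 for JAZ5 in nrpe1, and 0.0642 for MYC2 and -0.31 for ORA59 in idn2-1. Both MYC2 values changed sign because its folds lay near those medians. Depth is unknown, so it could not be weighed.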
